A study of Mus musculus with 23 samples.

Results

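RNA crosslinked to Upf1 in untreated mouse embryonic stem cells was compared with RNA recovered by a control antibody, using 6 of the 23 samples of the series. All 6 were CLIP-seq libraries, made from RNA that was crosslinked to protein, immunoprecipitated and sequenced. Of these, 3 were precipitated with a rabbit antibody against Upf1 (Bethyl) and 3 with rabbit IgG (Upstate), and each antibody had libraries labelled A1, A2 and I. The choice followed the labels for antibody and treatment and used no measured value. All 6 came from the v6.5 line, grown on mouse embryonic fibroblasts with LIF, separated from the fibroblasts by pre-plating, kept on gelatin and irradiated at 254 nm with 400 mJ/cm2. None of the 6 had received cycloheximide, and no gene was deleted or depleted. The cell type was not checked against marker genes, since no region could be tied to a gene. The labels give no separate cultures for A1, A2 and I, so the p-values reflect the spread among the libraries alone, which may be technical.

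Upf1 is an RNA helicase with a central place in nonsense-mediated decay, the pathway that degrades mRNAs on which translation ends too early. It binds RNA with little preference for sequence and is known to occupy long 3′ untranslated regions, while translating ribosomes are thought to displace it from coding sequence. In CLIP, ultraviolet light links a protein to the RNA it touches, and short RNA fragments are then sequenced. A control IgG shows what the procedure recovers without the protein, often abundant RNA such as ribosomal RNA.

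The deposited alignments lie on mouse build mm9 and on a separate contig, chrRibo, whose sequence the labels leave undescribed. No annotation of mm9 was used here, so regions are given by position, counted from 1, and carry no gene names. An alignment was counted once per library for each distinct chromosome, start, end and strand. This gave 97651 alignments in Upf1 A1, 20449 in Upf1 A2 and 89206 in Upf1 I. The control libraries were smaller, with 10299 in IgG A1, 8271 in IgG A2 and 47670 in IgG I. A count of 0 therefore allows up to 3.11 per 100000 unspliced alignments in Upf1 A1 but up to 36.9 in IgG A2. Intervals and such limits cover counting error only.

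The libraries were not separate pools of RNA molecules. A molecule was taken as an alignment together with the 2 random letters of its adapter. In IgG A2, 82.2% of the molecules were also present in another of the 10 CLIP libraries of the series, and 41.9% were present in Upf1 A2 alone. Conversely, 16.9% of the molecules of Upf1 A2 were present in IgG A2. IgG I shared 6.07% of its molecules with Upf1 I. IgG A1 and Upf1 A1 shared almost none, at 0.0296% of the molecules of IgG A1. IgG A2 is thus not an independent control for Upf1 A2, and the main shares, the sums over runs and classes of regions and the chrRibo regions are given with shared molecules left out as well. IgG A1 stood apart in another way, with 227205 lines for its 10299 distinct alignments, against 10964 lines for the 8271 of IgG A2. Read length also differed, since Upf1 A1, Upf1 I and IgG I were most often aligned over 34 nt and the other libraries over 38 nt. Within each read length, 1 antibody therefore has a single library, and values within a read length are descriptions with no replicate check.

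**Figure D1:**
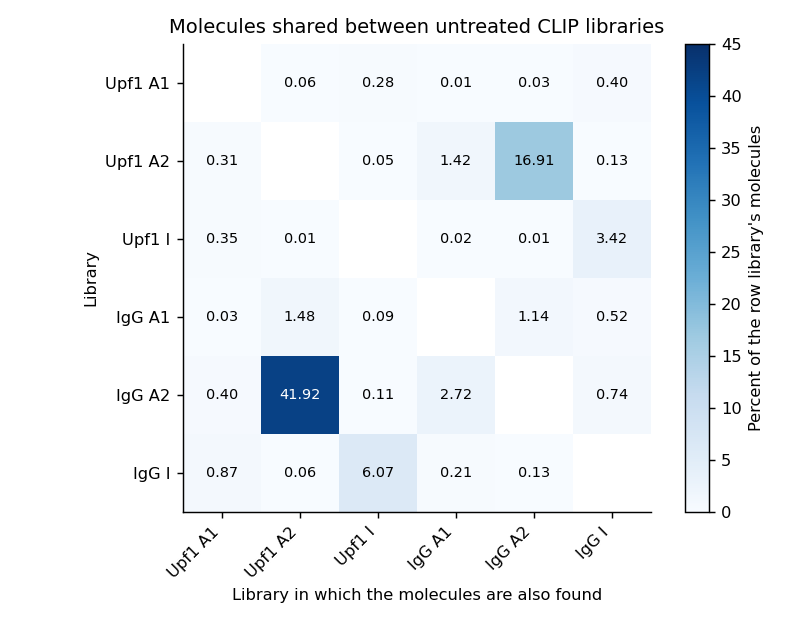
Percent of the molecules of each untreated CLIP library (rows) that were also found in each other untreated library (columns), where a molecule is an alignment with its 2 adapter letters. IgG A2 shared 41.9% with Upf1 A2 and IgG I shared 6.07% with Upf1 I.

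The clearest difference between the antibodies lay on chrRibo, which was less abundant in each Upf1 library than in each IgG library. It held 1.15% of the alignments of Upf1 A1, 1.46% of Upf1 A2 and 0.707% of Upf1 I, with Wilson 95% intervals from 1.08 to 1.22%, 1.30 to 1.63% and 0.654 to 0.765%. In the control it held 5.72% of IgG A1, 3.19% of IgG A2 and 2.91% of IgG I, with intervals from 5.29 to 6.18%, 2.83 to 3.59% and 2.76 to 3.06%. No interval of one antibody met an interval of the other. The means were 1.10% ± 0.377 (SD, n = 3) for Upf1 and 3.94% ± 1.55 (SD, n = 3) for IgG, a difference of -2.84 percentage points. The exact two-sided permutation p was 0.1, the smallest that 3 against 3 libraries can give, and the adjusted p over 7 shares was 0.7. By label, the IgG share was 4.98 times the Upf1 share in A1, 2.19 times in A2 and 4.11 times in I. With shared molecules left out, the difference was -3.03 points. It was -1.98 points among the libraries with 34 nt reads and -2.998 points among those with 38 nt reads. Its size depended on how alignments were counted, at -18.5 points with every line counted and -7.18 with each molecule counted once. A molecule took up to 2 lines in each Upf1 library but up to 1280, 18 and 258 in IgG A1, A2 and I. The value with every line thus also includes repeated lines, which differ between the antibodies. Leaving out the 20 best covered regions, 3 of which lie on chrRibo, gave -0.473 points. The exact permutation p was 0.1 under each of these alternatives except within a read length, where no p was computed.

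Spliced and mitochondrial alignments did not separate the antibodies. Spliced alignments, taken as those spanning more than 60 nt, made up 1.16% of Upf1 A1, 1.17% of Upf1 A2 and 0.900% of Upf1 I. They made up 0.845% of IgG A1, 1.81% of IgG A2 and 1.23% of IgG I, so the lowest and the highest share were both from IgG (exact permutation p = 0.6, adjusted p = 0.84). The difference of -0.217 points was -0.265 without shared molecules, became 0.0421 without IgG A2, and was -0.196 within 34 nt and -0.156 within 38 nt libraries. The mitochondrial genome, chrM, held 0.107% of Upf1 A1, 0.0489% of Upf1 A2 and 0.604% of Upf1 I. In IgG the shares were 0.184%, 0.206% and 0.587% in the same order (exact permutation p = 0.6, adjusted p = 0.84). Both libraries labelled I were high, whichever antibody was used, and the other 4 were low. The difference of -0.0726 points turned positive without Upf1 A1 (0.000763), without Upf1 A2 (0.0296) and without IgG I (0.0582). It was -0.0770 without shared molecules, -0.232 within 34 nt and -0.146 within 38 nt libraries.

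**Figure D2:**
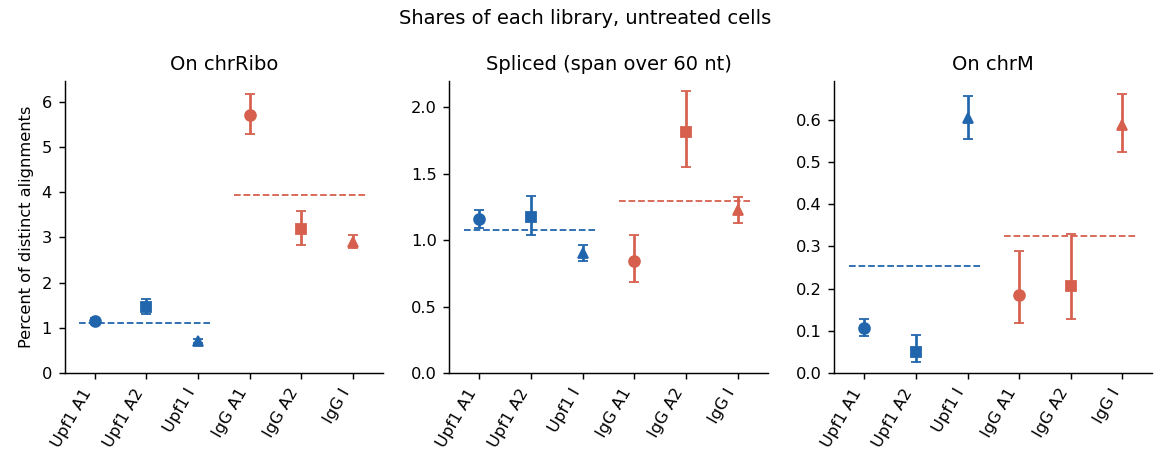
Percent of distinct alignments on chrRibo, spliced and on chrM in each of the 6 libraries. Points are libraries, bars are Wilson 95% intervals and dashed lines are group means. On chrRibo the Upf1 libraries lie between 0.707 and 1.46% and the IgG libraries between 2.91 and 5.72%, while for the other shares the groups overlap.

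Regions were then compared one by one. Unspliced alignments of the 6 libraries were merged on each strand where gaps were at most 50 nt, which gave 169081 regions, of which 136195 held a single alignment. The 1727 regions with at least 10 alignments and a presence in at least 3 libraries were compared. They held 20.3%, 15.1% and 13.0% of the unspliced alignments of Upf1 A1, A2 and I, and 15.3%, 18.3% and 19.2% of those of IgG A1, A2 and I. Upf1 A1 was present in 1714 of them and IgG A1 in 352. The minimum was met mostly through the deep libraries. The 3 Upf1 libraries reached 10 alignments by themselves in 1218 regions and the 3 IgG libraries in 206, and 86.8% of the alignments came from Upf1 A1, Upf1 I and IgG I.

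By limma-voom with TMM scaling, no region passed an adjusted p of 0.05 in either direction, so the shares called higher and lower in Upf1 were both 0%. At an unadjusted p under 0.05, 13 regions were higher in Upf1 (0.753%) and 9 were lower (0.521%). The trended limma test also called 0, and 10 increases and 13 decreases had an unadjusted p under 0.05 there. Rates per 100000 unspliced alignments did not overlap between the antibodies in 79 regions higher in Upf1 (4.57%) and 17 lower (0.984%). Over all regions, the log2 ratio of Upf1 to IgG had a median of 0.25 under TMM and -0.39 under library totals, so the level of 0 depends on the scaling and ratios are read against that median. In simulated data with 50 changed regions at each size, limma-voom found 12 increases and 18 decreases at 16-fold. At 2-fold it found 3 increases and 0 decreases, with 8 false calls in all. The simulated libraries were drawn independently at a set dispersion of 0.3, which was not estimated from these data. They held no shared molecules, so this recovery does not give the power of the real comparison.

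**Figure D3:**
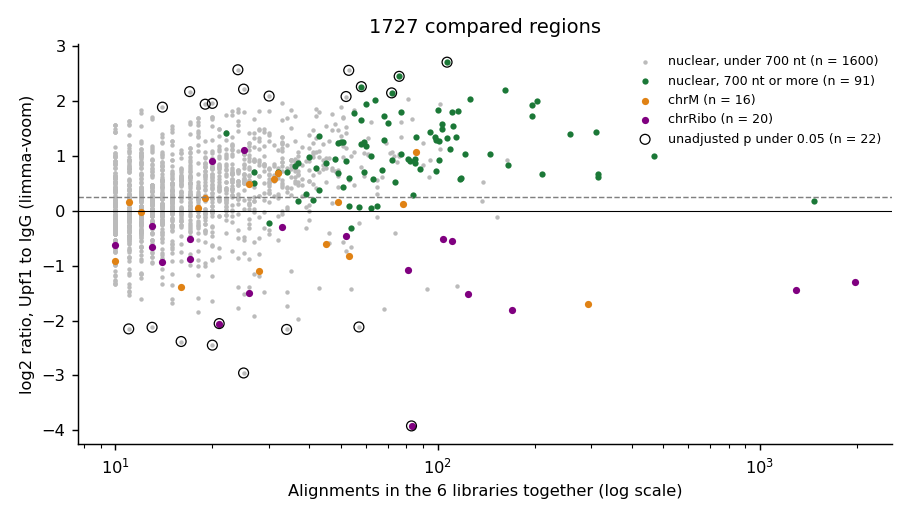
Log2 ratio of Upf1 to IgG by limma-voom (vertical) against the alignments in all 6 libraries (horizontal, log scale) for the 1727 compared regions. The dashed line is the median of all regions, 0.25. The 20 chrRibo regions have a median of -0.77 and the 91 nuclear regions of 700 nt or more a median of 1.00, and circles mark the 22 regions with an unadjusted p under 0.05. The 91 are also better covered, with a median of 72 alignments against 15 for all regions.

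On chrRibo, 18 of the 20 compared regions had a log2 ratio below 0, and their median was -0.77 against 0.25 for all regions. Scaled without the filter on low counts, the same medians were 0.03 and 1.17. In 8 of these 20, each Upf1 library lay below each IgG library, against 0.984% of all regions. None passed the adjusted test. All 20 lay on the plus strand, and minus-strand alignments on the contig numbered only 0 to 10 per library. The signal was concentrated in 2 long stretches, which held 71.9 to 78.9% of the unspliced chrRibo alignments of the Upf1 libraries and 75.2 to 83.3% of those of the IgG libraries.

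The larger stretch, positions 6299 to 9294, was the most heavily covered region of the whole comparison. It held 535 alignments per 100000 in Upf1 A1, 762 in Upf1 A2 and 327 in Upf1 I. The IgG libraries held 2673, 1847 and 1272 in the same order. All Upf1 values lay below all IgG values, and the log2 ratio was -1.30 ± 1.06 (SE), with an adjusted p of 0.998 by limma. Positions 9814 to 11468 followed the same order, with 300.5, 401 and 205 in Upf1 and 1665, 862 and 1068 in the controls. Its log2 ratio was -1.45 ± 1.08 (SE). Positions 11735 to 12022 held 38.3, 14.8 and 28.3 in Upf1 and 294, 49.3 and 151 in IgG. In each of these 3 regions the groups were separate. Without shared molecules they stayed separate in the first, at 300.6 to 489.6 per 100000 in Upf1 and 1248 to 2514 in IgG, and in the second, at 189.6 to 295.6 against 835 to 1643. In the third, IgG A2 then held 0 alignments, so the groups overlapped, and the log2 ratio was -0.60 in place of -1.81.

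The lowest p of all 1727 regions belonged to a stretch of only 65 nt on chrRibo, positions 5075 to 5139. It held 15 alignments in Upf1 A1, 2 in Upf1 A2 and 0 in Upf1 I, and 12 in IgG A1, 10 in IgG A2 and 44 in IgG I. Per 100000, the Upf1 libraries stood at 15.5, 9.90 and 0 and the IgG libraries at 118, 123 and 93.4. With shared molecules counted, the IgG values were close together. Upf1 A2 and Upf1 I lay below what a count of 0 allows there, 14.8 and 3.39 per 100000, while Upf1 A1 lay above its 3.11. The mean was 8.48 ± 7.87 (SD, n = 3) in Upf1 and 111 ± 15.8 (SD, n = 3) in IgG, and the log2 ratio was -3.92 ± 1.12 (SE), with an unadjusted p of 0.000463 and an adjusted p of 0.800 by limma. The call depended on the setting. The adjusted p by limma was 0.00864 with at least 30 alignments a region, 0.0270 with 10 alignments in each of 3 libraries, 0.0198 with a replicate block, 0.00956 without IgG A1 and 0.00479 with library totals and shared molecules left out. Under the other alternatives it was between 0.0741 and 0.999. Without molecules shared between libraries, the 10 alignments of IgG A2 became 0 while those of IgG A1 and IgG I were 11 and 44, so the groups then overlapped. On the pooled counts, the IgG rate was 12.2 times the Upf1 rate, with an exact 95% counting interval from 7.06 to 22.1.

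Among the nuclear regions, that is those on chromosomes other than chrM and chrRibo, the lowest p in the same direction was at chr6:3150971-3151015 (plus strand), which held 0, 1 and 2 alignments in Upf1 A1, A2 and I and 14, 1 and 7 in IgG A1, A2 and I. The log2 ratio was -2.96 ± 1.02 (SE), with an unadjusted p of 0.00361 and an adjusted p of 0.998 by limma. The pooled IgG rate was 23.0 times the Upf1 rate, with a counting interval from 6.91 to 120 because Upf1 held only 3 alignments. This region had 2 compared neighbours on the same strand, which were looked at after its value was seen. Over the 3 regions, between positions 3150971 and 3151671, the rate per 100000 was 1.04, 54.4 and 7.92 in Upf1 and 480, 12.3 and 89.2 in IgG. The A1 and I labels thus differed widely and the A2 label ran the other way. Without shared molecules, label A2 had 39.4 in Upf1 and 59.7 in IgG, where IgG A2 held 1 alignment, and so ran the same way as the others.

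A longer run of 14 regions on 1 strand, chr17:39979947-39985727 (plus strand), was likewise chosen after its values were seen. Together these regions held 154, 208 and 59.95 alignments per 100000 in Upf1 A1, A2 and I. They held 666, 357 and 327 in IgG A1, A2 and I, so every IgG library lay above every Upf1 library, as on chrRibo. Whether the run and chrRibo share sequence was not tested, so they are not taken as independent. The log2 ratio was below 0 in 13 of the 14, with a median of -1.31. In 3 of the 14 the libraries of the antibodies did not overlap, against 0.984% of all regions lower in Upf1 in this way. The 14 were not chosen independently of these values. One of these 3, chr17:39984837-39985211, held 23.8, 19.8 and 18.1 per 100000 in Upf1 and 108, 73.9 and 70.1 in IgG. It stayed separate without shared molecules. At chr17:39979947-39980079 and chr17:39984324-39984435, IgG A2 then held 0 alignments, so the groups overlapped. Without shared molecules the run held 146, 27 and 52 alignments in Upf1 and 64, 5 and 147 in IgG, and every IgG rate still lay above every Upf1 rate (298 to 633 against 60.1 to 177 per 100000).

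In the remaining regions with the lowest p below 0, IgG A1 had the highest rate of the 6 libraries. The region chr4:128688037-128688255 (plus strand) held 2, 0 and 2 alignments in Upf1 and 11, 0 and 5 in the controls, with a log2 ratio of -2.45. The region chr10:40271053-40271105 (plus strand) held 2, 0 and 1 against 10, 0 and 3, with a log2 ratio of -2.38. The region chr9:113665951-113665996 (plus strand) held 1, 1 and 0 against 3, 0 and 6, with a log2 ratio of -2.15. IgG A2 held no alignment in any of these 3, so the groups overlapped at or near 0.

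In the opposite direction, the region with the lowest p was found with Upf1 alone. The region chr7:19842601-19843105 (minus strand) held 15, 3 and 6 alignments in Upf1 A1, A2 and I and none in any IgG library. The rates were 15.5, 14.8 and 6.79 per 100000. With no IgG alignment, the region met the minimum of 10 through Upf1 alone, so no fold is given. The unadjusted p was 0.00878 and the adjusted p 0.998 by limma. The region was 1 of 28 (1.62% of the 1727) that were present in all 3 Upf1 libraries and in no IgG library, and 0 showed the reverse. These counts do not compare the antibodies, since the minimum of 10 was met by Upf1 alone in 1218 regions and by IgG alone in 206. Of the alignments in the 28 regions, 66.2% came from Upf1 A1, the deepest library. The 28 held 10 to 25 alignments each, with a median of 11.

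The best covered of these 28 was chr11:100232572-100232736 (minus strand), with 20, 2 and 3 alignments in Upf1. Like the rest of the 28, it met the minimum of 10 through Upf1 alone, so its direction followed from the choice. After it and the region on chromosome 7 came chr10:80829931-80830268 (minus strand), with 19, 1 and 2. The Upf1 libraries differed among themselves there, since Upf1 A1 held 19.7 per 100000 and Upf1 I held 2.26. The region chr4:151706749-151707125 (plus strand) held 15, 2 and 2. The region chr8:109582521-109582870 (plus strand) held 9, 2 and 6. Its rates were the most even of the 5 best covered, at 9.32, 9.90 and 6.79 per 100000. All these rates lay below the 29.4 and 36.9 per 100000 that a count of 0 allows in IgG A1 and IgG A2, where a level like that of Upf1 was not detectable. In IgG I a count of 0 allows up to 6.37.

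A further 3 regions of lowest p above 0 were present in IgG I and absent from IgG A1 and IgG A2. The region chr5:135421175-135422036 (minus strand) held 56, 4 and 29 alignments in Upf1 and 0, 0 and 18 in IgG. The log2 ratio was 2.70 ± 1.06 (SE), and IgG I, at 38.2 per 100000, stood above Upf1 I, at 32.8. The adjusted p by limma was 0.998, 0.0436 without IgG I, and between 0.964 and 0.9995 when any other single library was left out. The region chr14:55187074-55187642 (minus strand) held 32, 5 and 11 against 0, 0 and 5, with a log2 ratio of 2.56. The region chr10:62043968-62044927 (minus strand) held 36, 5 and 19 against 0, 0 and 16, with a log2 ratio of 2.45. Of the 79 regions whose rates were higher in every Upf1 library, 74 were likewise at 0 in both IgG A1 and IgG A2. Such zeros were common but less frequent over all 1727 regions, where 28 had no IgG alignment and 809 had IgG alignments in IgG I only. A single alignment already gives 9.79 per 100000 in IgG A1 and 12.3 in IgG A2. Of the 79, 77 were at 0 in IgG A1 and 75 in IgG A2. The lack of overlap in the 79 thus rests largely on zeros in these shallow libraries.

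Long tracts of continuous coverage were examined as a class because Upf1 is known to occupy long stretches of RNA. There were 91 nuclear regions of 700 nt or more, from 711 to 5986 nt, with a median of 72 alignments. They held 4.33% of the unspliced alignments of Upf1 A1, 2.91% of Upf1 A2 and 3.04% of Upf1 I. In IgG they held 0.920% of IgG A1, 3.84% of IgG A2 and 4.20% of IgG I. One control library, IgG A1, was far below all others, and the other 2 lay within the range of the Upf1 libraries. The means were 3.43% ± 0.785 (SD, n = 3) in Upf1 and 2.99% ± 1.80 (SD, n = 3) in IgG, a difference within the spread. Without shared molecules, IgG A2 stood at 4.65%, above the 2.38 to 4.30% of the Upf1 libraries, and the difference of 0.444 points became -0.026. It was -0.590 points without IgG A1.

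The labels did not give the same order of antibodies. In A1, 88 of the 91 tracts had the higher rate in Upf1, and the summed rate was 4.71 times that of IgG (counting interval 3.84 to 5.84). In A2, 34 were higher in Upf1, 44 were lower and 13 were at 0 in both. In I, only 13 were higher in Upf1 and 78 were lower, and the summed rate was 1.38 times higher in IgG (1.30 to 1.46). Of all 1727 regions, 1473, 493 and 689 were higher in Upf1 in A1, A2 and I, and 251, 538 and 1028 were lower. The counts for tracts and for chrRibo regions thus include a tilt of the label as a whole. The median log2 ratio of the 91 by limma-voom was 1.00 against 0.25 for all regions, with 89 above 0, and 4 of the 91 were higher at an unadjusted p under 0.05, beside 0.753% of all regions. Without IgG A1 this median was 0.20 and that of all regions 0.15. Among the 3 libraries with 34 nt reads it was -0.21, and among the 3 with 38 nt reads 0.97. The chrRibo regions, by contrast, were lower in Upf1 under every label, in 15, 12 and 15 of the 20 for A1, A2 and I. The long tracts were also better covered, with a median of 72 alignments against 15 for all regions. At 40 or more alignments, the median log2 ratio was 1.08 in 80 tracts and 0.96 in 112 nuclear regions over 80 and under 700 nt. At 20 to 39 alignments it was 0.70 in 11 tracts and 0.60 in 394 such regions. The contrast of 1.00 with 0.25 is thus not one of length alone, and length apart from coverage was not tested.

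**Figure D4:**
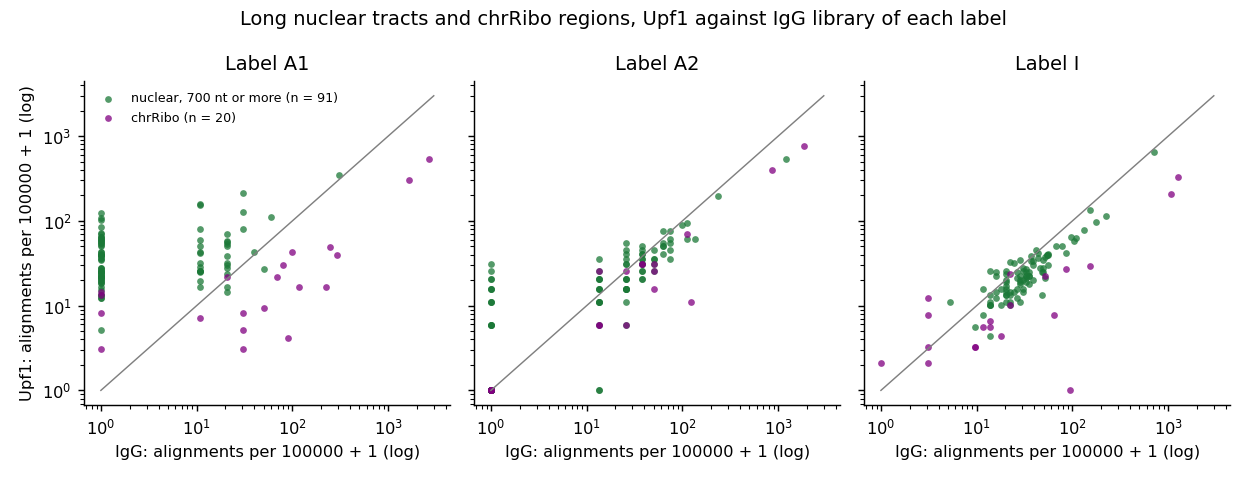
Alignments per 100000 unspliced alignments, plus 1 so that 0 can be drawn, in the Upf1 (vertical) and IgG (horizontal) library of each label, both on log scales. Points are the 91 nuclear regions of 700 nt or more and the 20 chrRibo regions, and the line marks equal rates. Long tracts lie above the line in A1 (88 of 91) and below it in I (78 of 91), while chrRibo regions lie mostly below it in each panel. Of all 1727 regions, most of which are not drawn, 1473 were higher in Upf1 in A1 and 1028 were lower in I.

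Since Upf1 A1 helped to build these tracts, they were rebuilt for each label from the 4 libraries of the other labels, an alternative added after the data had been seen. For A1 there were 30 such tracts, which held 1.72% of Upf1 A1 and 0.539% of IgG A1, a ratio of 3.19 (counting interval 2.44 to 4.25). For A2 there were 85, with 2.79% of Upf1 A2 and 3.73% of IgG A2. For I there were 17, with 0.629% of Upf1 I and 0.954% of IgG I. The order of the antibodies within each label was the same as with all 6 libraries.

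Width set IgG A1 apart from the other libraries. In IgG A1, nuclear regions of 80 nt or less held 1.90% of the alignments, against 0.357 to 0.772% in the other 5 libraries. Regions over 400 and under 700 nt held 1.04% of IgG A1 and between 2.82 and 5.28% of the others. IgG A1 thus carried proportionally more of its alignments in narrow regions and on chrRibo. Its part in the ratios of long tracts is given by the values without it, above.

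**Figure D5:**
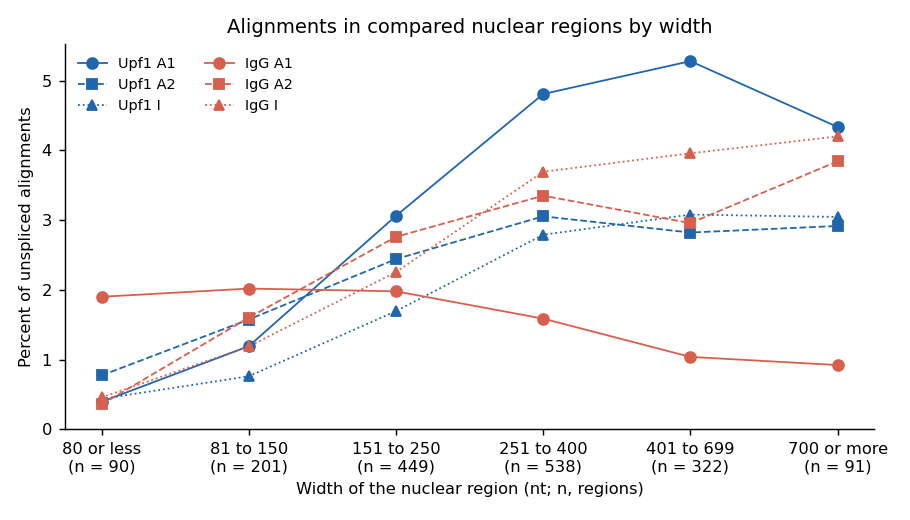
Percent of the unspliced alignments of each library (vertical) that fell in compared nuclear regions of each width (horizontal, nt). Lines join the values of 1 library. IgG A1 decreases from 1.90% in the narrowest regions to 0.920% in the widest, and the other 5 libraries hold 2.91 to 4.33% in the widest.

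The most heavily covered nuclear regions were found with both antibodies in all 6 libraries. The largest, chr19:5796009-5801994 (minus strand), held 333, 110 and 568 alignments in Upf1 A1, A2 and I and 31, 98 and 332 in IgG A1, A2 and I. The rates were 345, 544 and 643 per 100000 in Upf1 and 304, 1207 and 705 in IgG. The groups overlapped, and the log2 ratio of 0.18 ± 1.09 (SE) changed sign with the setting, to -0.40 with library totals and -0.45 without IgG A1. Next came chr11:95823439-95824888 on the minus strand, described here with a less covered neighbour on that strand. It held 211, 198 and 112 per 100000 in Upf1 and 29.4, 234 and 225 in IgG, and the neighbour, chr11:95821519-95822880, held 78.7, 89.1 and 62.2 against 29.4, 98.5 and 108. In each, IgG A1 was the lowest of all libraries, and IgG I stood above Upf1 I.

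Other tracts among the named regions also differed in order between the labels. The region chr5:92481418-92484075 (minus strand) held 109, 39.6 and 133 per 100000 in Upf1 and 58.8, 61.6 and 153 in IgG. On that strand too, chr5:135095989-135097448 held 153, 29.7 and 56.6 against 9.79, 36.9 and 104. The region chr4:133559254-133561081 (minus strand) held 127, 59.4 and 96.2 against 29.4, 111 and 174. The region chr8:124405064-124406962 (minus strand) held 156, 94.0 and 78.1 against 9.79, 111 and 132. Each of these was higher in Upf1 under label A1 and higher in IgG under labels A2 and I, and the unadjusted p was 0.228 to 0.608 by limma.

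Within the tracts, the mean position of alignments lay near the middle with each antibody. Measured from the 5′ end (0) to the 3′ end (1) of each tract, it was 0.480, 0.483 and 0.494 in Upf1 A1, A2 and I and 0.488, 0.483 and 0.488 in IgG A1, A2 and I. The 25% of each tract nearest the 3′ end held 20.8 to 24.8% of the Upf1 alignments and 23.1 to 25.5% of the IgG alignments. The nuclear regions were also strand-specific in every library, with 0 to 7 alignments on the opposite strand against 964 to 18398 on the region's own strand.

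On chrM, 16 regions were compared, 14 of them on the plus strand, and none had an unadjusted p under 0.05. The most covered, positions 70 to 1708 on the plus strand, held 25, 0 and 149 alignments in Upf1 A1, A2 and I and 10, 3 and 107 in IgG A1, A2 and I. Per 100000, these were 25.9, 0 and 169 in Upf1 and 97.9, 36.9 and 227 in IgG, so the libraries labelled I were highest within each antibody. IgG lay above Upf1 under each label, but the groups overlapped, and the log2 ratio of -1.69 ± 1.23 (SE) became 0.05 without Upf1 A2. Positions 2052 to 2863 held 15, 5 and 37 against 0, 2 and 27, and positions 3440 to 4409 held 1, 0 and 56 against 0, 0 and 21. The 2 regions on the minus strand, positions 13134 to 13293 and 13652 to 13891, held 0, 3 and 5 against 0, 1 and 2, and 3, 0 and 6 against 0, 2 and 5. The median log2 ratio on the plus strand was 0.09. The plus strand held 83.7%, 70.0% and 90.4% of the chrM alignments of Upf1 and 89.5%, 64.7% and 93.9% of those of IgG (exact permutation p = 0.9).

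Position relative to splicing served as a stand-in for gene structure. Spliced alignments mark transcribed exons, and an unspliced alignment up to 2000 nt beyond the 3′ end of a merged spliced span may lie in a last exon. The 6 libraries held only 2994 spliced alignments, so a span may cover only part of a gene. No annotation was used to check this, and the 3′ side is a position relative to spans, not a measured last exon. Of the unspliced alignments inside or near such spans, the 3′ side held 70.6% in Upf1 A1, 60.9% in Upf1 A2 and 57.3% in Upf1 I. It held 48.0% in IgG A1, 51.8% in IgG A2 and 61.8% in IgG I. The means of 62.9% ± 6.89 and 53.9% ± 7.12 (SD, n = 3 each) differed by 9.06 points, with an exact permutation p of 0.3 and an adjusted p of 0.84. By label, Upf1 was higher by 22.6 points in A1 and by 9.14 in A2, while in I the difference was -4.53. It was 8.96 points without shared molecules, 2.13 within 34 nt and 11.0 within 38 nt libraries. The groups overlapped because IgG I lay above both Upf1 A2 and Upf1 I.

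Of the 1691 nuclear regions, 265 lay on the 3′ side of a span, 43 inside, 12 on the 5′ side and 1371 elsewhere. The median log2 ratios were 0.42, 0.30, 0.00 and 0.24, beside 0.25 for all regions, and 3 of the 265 on the 3′ side were higher at an unadjusted p under 0.05, near the 0.753% of all regions. The 265 held 3.78%, 2.19% and 2.08% of Upf1 A1, A2 and I and 0.646%, 2.36% and 2.82% of IgG A1, A2 and I. This again set IgG A1 below the other 5 libraries, and without it the median of the 265 was 0.18. Without shared molecules, the 265 held 3.77%, 1.87% and 2.07% of Upf1 and 0.633%, 2.21% and 2.90% of IgG in the same order. Short alignments, under 30 nt, made up 15.1%, 31.4% and 12.2% of the unspliced alignments of Upf1 A1, A2 and I. They made up 9.98%, 39.3% and 12.1% of those of IgG, so A2 was highest for both antibodies (exact permutation p = 1).

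The same regions were read in the 4 cycloheximide libraries (100 µg/ml, 2 h, a block of translation elongation), which had no part in choosing them. The chrRibo regions held 0.914% and 0.809% of Upf1 A1 and A2 and 1.93% and 1.95% of IgG A1 and A2, so IgG was again higher. Positions 5075 to 5139 held 23.2 and 30.5 per 100000 in Upf1 and 88.3 and 79.6 in IgG. These rates came from 7 and 10 alignments in Upf1 A1 and A2 and 6 and 15 in IgG A1 and A2. Without shared molecules, 6 and 3 remained in Upf1 and 1 and 5 in IgG, too few to compare. The long tracts held 1.47% and 1.42% in Upf1 and 2.24% and 2.72% in IgG, the order seen in the untreated A2 and I libraries. Of the 5 best covered regions found with Upf1 alone, each held 0 to 3 alignments in any treated library. Of the molecules of the treated libraries, 30.6 and 36.1% in Upf1 A1 and A2 and 81.6 and 85.4% in IgG recurred in another library. Treated IgG A1 shared 35.2% with treated Upf1 A1 and 44.4% with treated Upf1 A2. With any single untreated library, the treated A1 libraries shared at most 1.24% (Upf1) and 1.88% (IgG). The treated A2 libraries shared up to 9.46% (Upf1) and 25.6% (IgG), in each case with untreated IgG A2. The treated antibodies are thus not independent of each other, nor are the treated A2 libraries independent of the untreated ones.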

How the data were processed

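Files of the 6 libraries list alignments on mm9, per the submitters' processing notes, which name TopHat 1.4.0, Bowtie 0.12.6 and Cufflinks 1.3.0 without their roles. The score deposited by the authors was 255 in every line and was not used. Per the labels' protocols, 2 random adapter nucleotides served to remove PCR copies. In the deposited files a molecule took up to 2 lines in each Upf1 library but up to 1280 in IgG A1, so distinct alignments were counted. Regions were compared with limma-voom (limma 3.58.1, R 4.3.3), with TMM scaling, trims of 30% and 5% and Benjamini-Hochberg adjustment over 1727 regions (threshold 0.05). The method was tested on simulated data (dispersion 0.3). The 7 shares were compared with exact permutation tests in Python 3.11.15.

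The comparison, classes and lists were chosen with earlier results of these data known. Named regions are the 5 of lowest p in each direction, the 10 with most alignments, the 3 with most on chrRibo and on each chrM strand, and the 5 with most alignments among those of 1 antibody only. Gene lists were not run, since no mm9 annotation was used here. Alternatives covered scaling, filters, merging gap, line counting, shared molecules, read length, replicate block and leaving out libraries.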

Additional observations from a re-analysis of the deposited data

How the results depend on the processing

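Depth limits the comparison, since IgG A1 and IgG A2 hold 10299 and 8271 alignments. Counts of regions called stayed at 0 except as follows. With at least 30 alignments, 1 of 328 was called lower in Upf1, as was 1 of 122 with 10 alignments in each of 3 libraries; with library totals and shared molecules left out (added after the data had been seen), 3 of 1560 were. Leaving out 1 library gave 0 to 1 higher (1 without IgG I) and 0 to 1 lower (1 without IgG A1). Correlations of deviations from group means were -0.14, 0.38 and 0.39 between the antibodies for labels A1, A2 and I. Those for A2 and I were the highest of any pair of libraries, so these labels may pair the libraries, while A1 did not. The A2 and I pairs also shared molecules. A replicate block called 1 lower, chrRibo 5075 to 5139, at an adjusted p of 0.0198 by limma. A replicate block leaves the chrRibo, spliced and chrM differences at -2.84, -0.217 and -0.0726 points by construction, and its exact permutation p was 0.25, the smallest it can give, 0.5 and 0.5. Merging gaps of 0 and 200 nt, every line or distinct molecules, no filter, a trended prior, read length as a covariate, libraries of 1 read length (where 1 antibody has a lone library, assumed to vary like the others) and leaving out chrRibo and chrM called 0.

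Leaving out 1 library, the chrRibo difference ranged from -3.35 to -1.95 points (-18.5 with every line, -7.18 with molecules, -0.473 without the 20 regions with most alignments), the spliced difference from -0.442 to 0.0421 and the chrM difference from -0.248 to 0.0582. Sign changes were found for the chrM plus-strand share (-10.4 to 4.30 points leaving out 1 library, 13.4 without shared molecules, 3.35 without the 20 regions with most alignments) and the compared-region share (-3.57 to 0.0765, 0.767 without those 20, and -15.2 with every line counted). The share under 30 nt ranged from -6.76 to 8.56 leaving out 1 library, with 3.14 for every line, 0.168 for molecules, 1.59 within 34 nt and 6.79 within 38 nt libraries. The log2 ratio on chromosome 19 was -0.40 with library totals, -0.21 with at least 30 alignments, -0.39 with 10 in each of 3 libraries, -0.53 with every line, -0.047 with the 200 nt gap, -0.18 with read length, -0.44 with totals and no shared molecules, -0.59 within 34 nt libraries and -0.45 to 0.71 leaving out 1 library. Within 34 nt libraries, chromosome 11 (95823439) gave -0.50 and chromosome 10 (62043968) -0.24; leaving out 1 library, chromosome 11 ranged from -0.030 to 1.89 and chrM 70 to 1708 from -3.78 to 0.054. The causes were not tested.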
